A study of Mus musculus with 6 samples.

Results

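Leap2, the hepcidin genes Hamp and Hamp2, and genes of iron handling were examined in mouse ear skin on one-colour expression arrays. The 10 genes are Leap2, Hamp, Hamp2, Ltf, Lcn2, Slc40a1, Tfrc, Hmox1, Fth1 and Ftl1, and they were taken by the gene name printed for each array probe, which gave 10 of 31699 gene names and 13 of 39429 non-control probes. The 3 wild-type (WT) mice were labelled as NC16A sufficient and the 3 knockout (KO) mice as NC16A deficient. NC16A is a segment of BP180, the transmembrane collagen XVII that anchors basal keratinocytes, and the series title concerns spontaneous skin inflammation. Each array held total RNA of the ear skin of 1 mouse. Age and sex are stated to be matched, while the age, the strain and the way the segment was removed are not stated in these labels. In the sample titles the WT mice carry the numbers 1 to 3, and the KO mice 1, 2 and 7.

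The genes were chosen by their KO and WT signals in this same comparison, in which Leap2, Hamp2 and Lcn2 stood out, and by their shared place in iron handling. The KO and WT values of the 10 genes are therefore given as a description, with no p-value. Whether they lay past the threshold of the fit over all genes is given only as a count, from which nothing is read. In a bulk sample, fewer cells of a type and less RNA per cell cannot be told apart.

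Hepcidin is a peptide hormone that binds ferroportin, the iron exporter encoded by Slc40a1, and leads to its degradation, so that iron stays inside the cell. Bone morphogenetic proteins (BMPs), acting through SMAD proteins, and interleukin 6, acting through STAT3, are its main inducers in liver. Mice carry a pair of hepcidin genes, of which Hamp encodes the regulator of body iron. LEAP2 is a peptide named for its abundance in liver and its antimicrobial activity in culture, and it also blocks the ghrelin receptor. Transferrin receptor 1 (Tfrc) brings iron in, ferritin (Fth1 and Ftl1) stores it, haem oxygenase 1 (Hmox1) frees it from haem, and lactoferrin (Ltf) and lipocalin 2 (Lcn2) keep it from microbes. Ferritin and Tfrc messages carry iron-responsive elements, which act on the translation of the former and the stability of the latter.

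The hepcidin genes are shown first, because they differed in signal and near-identical genes can share a probe's signal. Their probes lie on the minus strand of chromosome 7 of mm9, at chr7:31727490-31727549 for Hamp and chr7:31707520-31707579 for Hamp2, 19970 bases apart. In the 5′ to 3′ probe sequences, capitals mark the 17 bases that differ among 59 bases aligned without a gap.
Hamp probe: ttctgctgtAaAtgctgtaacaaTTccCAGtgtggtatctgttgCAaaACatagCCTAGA
Hamp2 probe: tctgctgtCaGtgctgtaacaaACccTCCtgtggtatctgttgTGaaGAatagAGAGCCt
The probes were 71.2% identical over that stretch, and the longest run of identical bases was 14. Whether either probe also bound the other message was not tested.

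The stretch before each start site is shown because an element of hepcidin's BMP response lies there. These are the 250 bases upstream of the RefSeq start on the minus strand of GRCm38.p6, at chr7:30944030-30944279 for Hamp and chr7:30924182-30924431 for Hamp2. Capitals mark the hexamer GGCGCC, the core of a BMP response element, and TTCTTGGAA, a STAT motif, or the bases of Hamp2 aligned with them.
Hamp promoter: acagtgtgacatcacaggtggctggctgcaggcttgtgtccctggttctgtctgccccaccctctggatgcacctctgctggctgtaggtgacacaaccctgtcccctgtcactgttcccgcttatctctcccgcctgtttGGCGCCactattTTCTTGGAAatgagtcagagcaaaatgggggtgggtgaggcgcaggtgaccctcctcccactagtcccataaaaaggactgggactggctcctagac
Hamp2 promoter: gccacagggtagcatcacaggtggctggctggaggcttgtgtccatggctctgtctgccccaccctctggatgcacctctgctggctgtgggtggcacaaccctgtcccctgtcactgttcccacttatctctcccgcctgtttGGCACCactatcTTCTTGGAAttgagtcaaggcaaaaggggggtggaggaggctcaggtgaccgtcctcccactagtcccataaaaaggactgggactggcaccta
The promoters were 91.9% identical over 247 aligned bases. The hexamer began 109 bases upstream of the Hamp start, and at the aligned place in Hamp2 it carried the substitution G4A, counted from 1 at the 5′ end of the hexamer. The STAT motif was present in both, 97 bases upstream of the start in Hamp and 94 in Hamp2. Searched on both strands, GGCGCC was found in 9.59% and TTCTTGGAA in 0.365% of 32851 RefSeq promoters of this length, and the motifs do not overlap. A match of letters is a description and not evidence of binding.

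The share of spots well above background ran from 72.6% to 78.2% over the arrays, and no spot was saturated. Values are given as processed signal, a brightness in intensity units, and as log2 of that signal minus the array's 75th percentile, which removes differences in overall brightness. The percentile was 6656, 5276 and 5513 across WT 1, 2 and 3 and 4416, 4164 and 3806 across KO 1, 2 and 7, so the KO arrays were dimmer as a whole. The 3 WT arrays and KO 1 were on slide 1, and KO 2 and KO 7 were on slide 2. Each difference is the KO mean less the WT mean in log2 units, with its standard error (SE) from the limma fit, and the value within slide 1 is KO 1 minus the WT mean. The epidermal markers that define skin (Krt5, Krt14, Krt1, Krt10, Lor, Flg2, Dsg1a and Trp63) were well above background on all 6 arrays.

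Of the 10 genes, 9 had a probe well above background on at least 3 arrays and entered the fit, and Hamp did not. At an adjusted p under 0.05 in limma, 1 of the 9 was higher (Lcn2), where 1.97% of the 23669 genes tested were, and 2 were lower (Leap2 and Hamp2), where 0.389% were. Together these are 3 of 9, against 2.36% of all genes. The other 6 did not pass. The groups did not overlap for 5 of the 9 genes, against 35.4% of all genes. The KO arrays were all above the WT arrays for 2 (Lcn2 and Ftl1), against 21.4%, and all below for 3 (Leap2, Hamp2 and Tfrc), against 14.1%. The median difference of the 9 genes was 0.21, against 0.05 over all genes tested. Since this comparison brought the genes together, neither count is a result about them. In the same limma fit, 6297 of the 23669 genes tested had an unadjusted p under 0.05. The counts at that level in the lists below are to be read beside it.

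**Figure D1:**
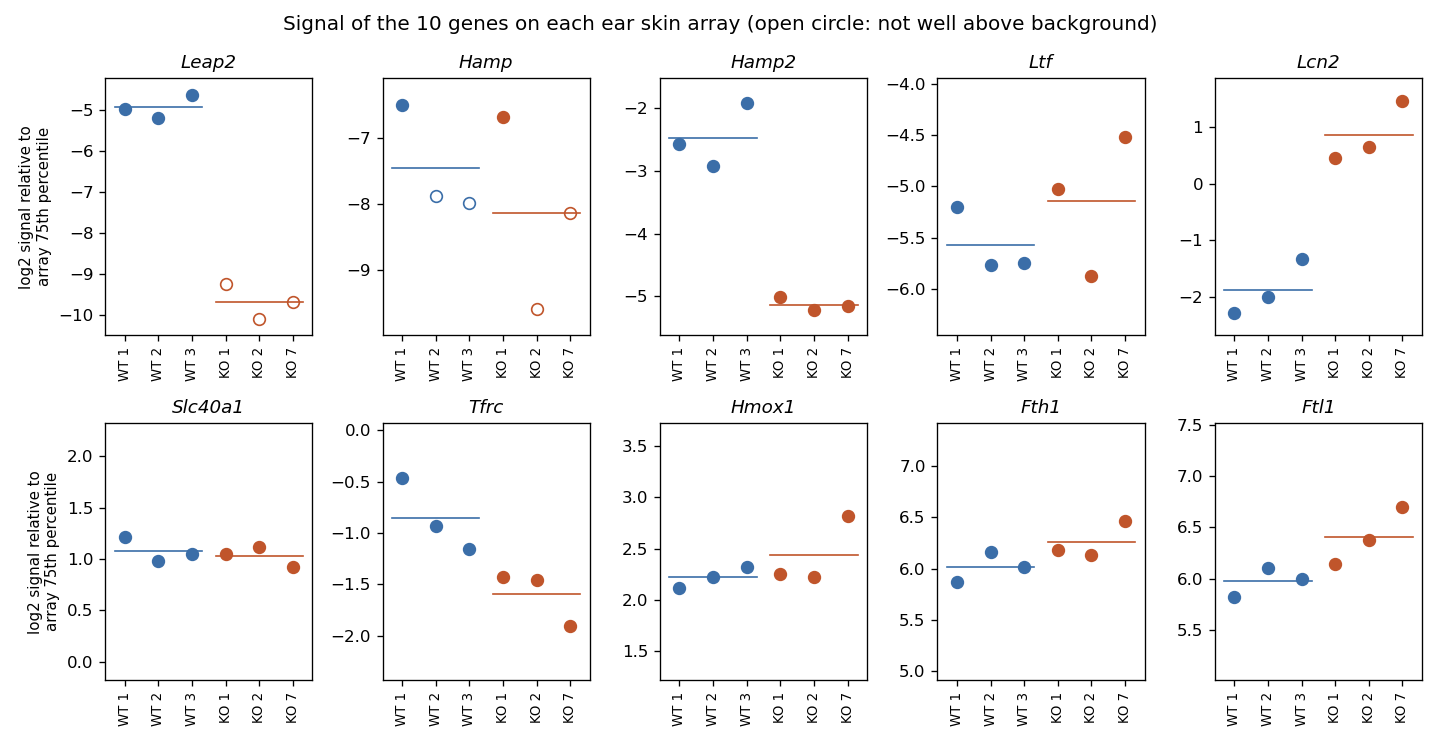
Log2 signal of the 10 genes after subtraction of the array's 75th percentile (y axis) on the WT (blue) and KO (orange) arrays, with the group means as lines, and open circles where the probe was not well above background. Leap2 and Hamp2 lie lower on every KO array than on any WT array, Lcn2 lies higher, and Slc40a1 stays between 0.93 and 1.22 on all 6 arrays.

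Leap2 was measured in WT ear skin and not well above background in any KO mouse. Its probe covers chr11:53235798-53235857 of mm9 on the minus strand and starts at base 322 of the transcript. The processed signal was 212 in WT 1, 143 in WT 2 and 222 in WT 3, and 7.35 in KO 1, 3.83 in KO 2 and 4.62 in KO 7. The 3 KO values are surrogates that the scanner software writes in place of signals too low to measure. The WT values were thus far above the KO values, and the KO values have no order among themselves. Relative to the 75th percentile the WT mean was -4.94 ± 0.29 (SD, n = 3). Set against the lowest signal counted as above background on each KO array, Leap2 was at least 5.73-fold lower in KO, and at least 4.32-fold lower in KO 1 alone against the WT mice of its slide. The fitted difference of -4.73 ± 0.26 depends on the surrogate values and is not a bound. With a normexp background and an offset of 50, which lifts low signals, it was -1.38.

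By the root mean square distance between values centred over the 6 arrays, Fthl17d, Serpinb6e and Gng13 were picked as genes like Leap2. Since Leap2 has only surrogate values in KO, the choice of these genes rests in part on unmeasured values. Their distances and order are therefore not given. Fthl17d, named for its likeness to the ferritin heavy chain, was -6.08, -6.97 and -6.43 across WT 1, 2 and 3, and was not well above background in any KO mouse. Of the ghrelin system, the LEAP2 receptor gene Ghsr was not well above background on any array. Mrap2, an accessory protein of that receptor, was well above background on at most 1 array and was not tested. Ghrelin (Ghrl) differed by 0.19 ± 0.23 (adjusted p = 0.61) and its acylating enzyme Mboat4 by 0.75 ± 0.25 (adjusted p = 0.13). Neither of these 2 genes passed in limma, and Mboat4 alone had an unadjusted p under 0.05.

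Hamp2 was lower in every KO mouse than in any WT mouse and was well above background on all 6 arrays. Its processed signal was 1122 in WT 1, 695 in WT 2 and 1455 in WT 3. The KO arrays read 137 in KO 1, 112 in KO 2 and 106 in KO 7. The 3 KO mice were close together and the WT mice were more spread out. On the log2 scale the WT mean was -2.47 ± 0.51 (SD, n = 3) and the KO mean -5.13 ± 0.11 (SD, n = 3), a difference of -2.66 ± 0.26 or 6.31-fold. Within slide 1 the difference was -2.54. By the same measure over the 6 arrays, the genes picked as like Hamp2 were Pgr, which encodes the progesterone receptor, Paqr7 (distance 0.39), which encodes a membrane progestin receptor, and Ces1e (0.44), a carboxylesterase gene. Paqr7 went from 3.61, 3.20 and 3.37 across WT 1, 2 and 3 to 0.96, 0.79 and 1.45 across KO 1, 2 and 7, while Pgr was not well above background in any KO mouse, so that its distance rests on unmeasured values and is not given.

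Hamp, the hepcidin gene that controls body iron, was at the edge of detection. Its processed signal was 74.1 in WT 1 and 43.0 in KO 1, and only these arrays were well above background. The other arrays gave 22.4 in WT 2, 21.9 in WT 3, 5.40 in KO 2 and 13.6 in KO 7. Detection thus did not follow the groups, and no difference was fitted.

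Liver is the main source of both peptides, so hepatocyte markers were read beside them. Of 10 such markers, 8 were measured, 1 rose, 0 fell and 7 did not pass, and 3 higher and 0 lower had an unadjusted p under 0.05. Ahsg, the fetuin A gene, rose by 1.83 ± 0.24 (adjusted p = 0.016) but not with slide as a block (adjusted p = 0.21, the highest of 21 alternatives, with a lowest of 0.0012), nor with replicate block or without WT 2, WT 3 or KO 2. Serpina1a differed by 0.97 ± 0.25 (adjusted p = 0.092). Chosen after their values were seen, albumin (Alb) differed by -0.38 ± 0.22 (adjusted p = 0.29 in limma) and Fga by 0.95 ± 0.28 (adjusted p = 0.11). On all arrays Apoa1 and Fgb were not well above background. The summed level of the 8 markers, in multiples of the 75th percentile, ran from 1.95 to 6.94 in WT and from 1.91 to 3.69 in KO, so the groups overlapped. This sum rests mainly on the brightest markers, Cyp2e1 and Apoa2. Cyp2e1, chosen after its values were seen, was -0.09, 2.56 and 2.12 across WT 1, 2 and 3 and 1.44, -0.30 and -0.23 across KO 1, 2 and 7. Taken singly, 3 of the 8 had every KO value above every WT value, against 21.4% of all genes, and 1 had every KO value below, against 14.1%. The part of these markers in the Leap2 and Hamp2 values was not tested.

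Genes that control hepcidin were measured in full. Of 25 genes, 0 rose, 0 fell and 25 did not pass in limma, while 4 higher and 5 lower had an unadjusted p under 0.05. Their median difference was -0.06, and -0.08 within slide 1. Bmp6, the ligand that signals iron load to hepcidin, differed by -1.07 ± 0.20 (adjusted p = 0.054). It was -2.60, -2.77 and -2.68 across WT 1, 2 and 3 and -3.36, -3.78 and -4.11 across KO 1, 2 and 7. Each KO mouse thus lay below each WT mouse, and the Bmp6 difference within slide 1 was -0.68. Bmp6 passed in 7 of 21 alternatives (adjusted p from 0.0037 to 0.46), among them the normexp background, array median scaling, the filter on all 6 arrays and the fit without KO 1. The 14 in which it did not pass included slide as a block, replicate block and the fits without WT 1, WT 2, WT 3, KO 2 or KO 7. Socs3, a feedback inhibitor that STAT3 induces, differed by 0.68 ± 0.15 (adjusted p = 0.070), with values of 1.45, 1.58 and 1.56 across WT 1, 2 and 3 and of 2.09, 2.08 and 2.44 across KO 1, 2 and 7. Chosen after its values were seen, interleukin 6 (Il6) differed by 2.34 ± 0.95 (adjusted p = 0.18), and KO 7 at -1.57 stood apart from KO 1 at -5.44 and KO 2 at -4.32. Interleukin 1 beta (Il1b), likewise chosen, differed by 4.05 ± 0.92 (adjusted p = 0.074), and KO 7 was again the highest array. Socs3 passed in 2 of 21 alternatives (adjusted p from 0.011 to 0.59) and Il1b in 5 of 21 (adjusted p from 0.014 to 0.62), of which 1 left out KO 7.

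Lcn2, which binds bacterial siderophores and so withholds iron, was higher in every KO mouse. Its probe lies at chr2:32240199-32240258 of mm9. The processed signal was 1376 in WT 1, 1317 in WT 2 and 2192 in WT 3, against 6033 in KO 1, 6525 in KO 2 and 10472 in KO 7. The groups did not overlap although the KO arrays were dimmer as a whole. Lcn2 averaged -1.87 ± 0.49 (SD, n = 3) over the WT mice and 0.85 ± 0.54 (SD, n = 3) over the KO mice on the log2 scale, a difference of 2.72 ± 0.34 or 6.60-fold, and 2.32 within slide 1. The genes picked as like Lcn2 were Areg (distance 0.20), which encodes the growth factor amphiregulin, Lrrc15 (0.27) and Adm2. Adm2, which encodes a peptide of the calcitonin family, was not well above background in any WT mouse, and its distance is not given.

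Ltf, the iron-binding protein of neutrophil granules, of milk and of other secretions, did not follow Lcn2. Its processed signal was 181 in WT 1, 96.9 in WT 2 and 102 in WT 3, and 136 in KO 1, 70.8 in KO 2 and 166 in KO 7. The groups overlapped, with KO 2 the lowest array before and after scaling. The difference was 0.43 ± 0.36 on the log2 scale, and it turned to -0.06 without scaling between arrays and to -0.06 with array weights. The spread among the KO mice (SD 0.68, n = 3) was larger than that difference.

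Neutrophils store both proteins, and their other markers were read beside them. Of 17 markers, 15 were measured, 3 rose, 0 fell and 12 did not pass, and 7 higher and 0 lower had an unadjusted p under 0.05. Of the 15, 13 had a higher mean in KO and 2 a lower one, where 44.9% of all genes tested were lower. The KO values were all above the WT values for 7, against 21.4% of all genes, and all below for 1, against 14.1%. The median difference of the 15 markers was 0.48, and 0.50 within slide 1. The rise was 4.69 ± 0.30 for S100a9 (adjusted p = 0.0019). For S100a8 it was 4.72 ± 0.35 (adjusted p = 0.0023), and keratinocytes under stress also make this pair of proteins. Cxcr2, a receptor for neutrophil-attracting chemokines, rose by 2.05 ± 0.26 (adjusted p = 0.015), with 1.51 within slide 1. With slide as a block Cxcr2 did not pass (adjusted p = 0.10, over alternatives from 6.0e-04 to 0.15), nor did it without WT 2, WT 3 or KO 2.

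The summed level of the 15 neutrophil markers ran from 12.9 to 15.9 in WT and from 78.6 to 127 in KO, in multiples of the 75th percentile. Without S100a8 and S100a9 it ran from 10.6 to 11.5 in WT and from 14.7 to 25.9 in KO. That sum rests mainly on Csf3r, the brightest of the remaining markers on every array. Csf3r, chosen after its values were seen, was 2.92, 3.06 and 2.95 across WT 1, 2 and 3 and 3.49, 3.42 and 4.22 across KO 1, 2 and 7. It differed by 0.73 ± 0.23 and did not pass. Named after their values were seen, granule genes gave 0.45 ± 0.34 for Camp, 3.80 ± 0.81 for Mmp8 and 0.17 ± 0.21 for Elane. The values were 1.85 ± 0.49 for Mpo, 0.48 ± 0.30 for Ctsg and -0.62 ± 0.30 for Prtn3, and none of these genes passed. Retnlg, likewise chosen, differed by 4.27 ± 1.37 and did not pass, with every KO value above every WT value. The surface marker Ly6g, likewise chosen, differed by -0.35 ± 0.15 and did not pass, with every KO value below every WT value. Ngp was well above background on 1 array and Cd177 on 2. Ltf thus stood beside Camp and below Lcn2, and the part of neutrophils in the Lcn2 values was not tested.

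**Figure D2:**
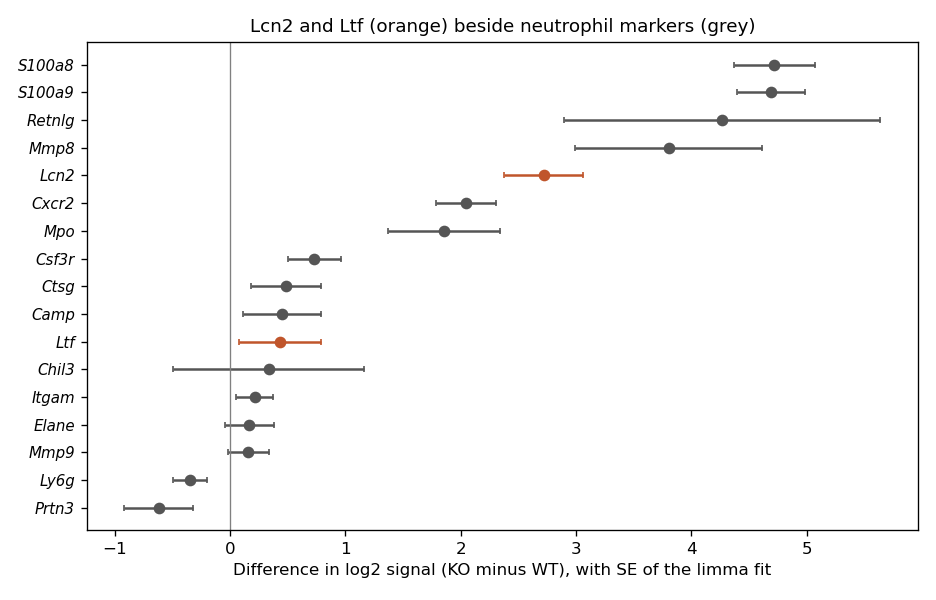
Difference in log2 signal, KO minus WT with its SE (x axis), for Lcn2 and Ltf (orange) and the 15 measured neutrophil markers (grey), from 3 mice per group. Lcn2 at 2.72 lies between Cxcr2 and Mmp8, and Ltf at 0.43 lies beside Camp at 0.45.

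Slc40a1, which encodes ferroportin, had nearly the same level in the groups. Its probe lies at chr1:45965255-45965314 of mm9. The log2 signal was 1.22, 0.98 and 1.05 across WT 1, 2 and 3, and 1.05, 1.12 and 0.93 across KO 1, 2 and 7. The values overlapped. KO minus WT was -0.05 ± 0.13, with 95% confidence limits of -0.37 and 0.26. Without scaling it was -0.54, and with array weights 0.07. Hepcidin acts on the ferroportin protein, which arrays do not read.

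Tfrc gave different answers at different places along its message, which is the reason its probes are shown. The probe nearest the 3′ end, printed 10 times on the array, starts at base 4173 of the transcript (chr16:32632255-32632314 of mm9). An internal probe starts at base 1113 (chr16:32620470-32620529), and a junction probe, which spans a splice site, starts at base 1617.
Tfrc internal probe: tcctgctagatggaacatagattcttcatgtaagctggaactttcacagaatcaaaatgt
Tfrc junction probe: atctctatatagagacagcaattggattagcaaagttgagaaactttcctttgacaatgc
At the 3′ probe the processed signal was 4825 in WT 1, 2765 in WT 2 and 2476 in WT 3, and 1646 in KO 1, 1512 in KO 2 and 1019 in KO 7. Every KO mouse was lower than every WT mouse there, and the log2 difference was -0.74 ± 0.23, or -0.57 within slide 1. At the internal probe it was 0.29 ± 0.20, with KO 1 the lowest of the 6 arrays and KO 2 and KO 7 the highest. The junction probe was much dimmer, with a processed signal of 76.8 to 180 in WT and 69.9 to 105 in KO, and it differed by 0.0053 ± 0.26.

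The 3′ probe relative to the internal probe gave 1.17, 0.87 and 0.65 across WT 1, 2 and 3, and 0.43, -0.17 and -0.67 across KO 1, 2 and 7. These log2 ratios within an array do not depend on the scaling between arrays, and they did not overlap between the groups. The ratios of KO 2 and KO 7, on slide 2, were the lowest. Averaged over its 3 probes, with equal weight for the dim junction probe, the Tfrc difference was -0.15. The iron-responsive elements of this message lie toward its 3′ end as background, and whether shorter forms of the message were present was not tested.

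Hmox1 also had probes that moved apart, in the opposite sense. Its 3′ probe (chr8:77624207-77624266 of mm9, from base 1290) and its internal probe (chr8:77620797-77620856, from base 324) read the same message.
Hmox1 internal probe: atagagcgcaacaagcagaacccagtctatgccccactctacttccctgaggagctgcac
At the brighter 3′ probe the log2 signal was 2.12, 2.23 and 2.32 across WT 1, 2 and 3 and 2.26, 2.23 and 2.82 across KO 1, 2 and 7. The groups overlapped, KO 7 was the highest, and the difference was 0.21 ± 0.19, or 0.02 without KO 7 and -0.28 without scaling. At the internal probe the signal was -1.37, -1.88 and -1.90 across WT 1, 2 and 3 and -2.18, -2.53 and -2.48 across KO 1, 2 and 7. Each KO value there lay below each WT value, with a difference of -0.68 ± 0.19 and -0.46 within slide 1. The log2 ratio of the 3′ to the internal probe averaged 3.94 in WT and 4.83 in KO, so it moved up, where that of Tfrc moved down from 0.90 to -0.14. The direction of Hmox1 therefore depends on the probe.

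**Figure D3:**
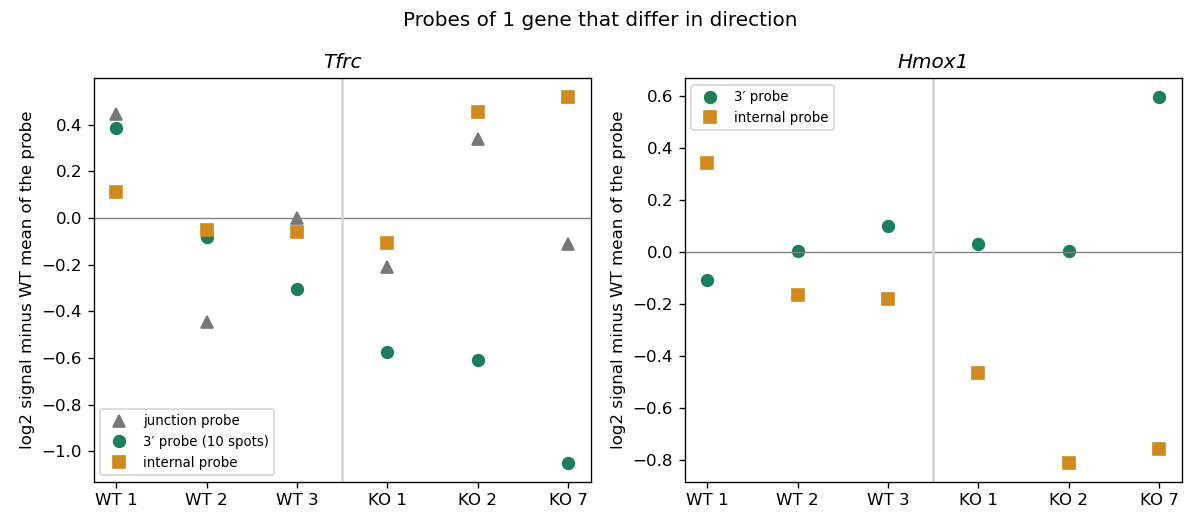
Log2 signal of each Tfrc (left) and Hmox1 (right) probe minus that probe's WT mean (y axis) on the 6 arrays (x axis). In KO the Tfrc 3′ probe lies below its WT mean and the internal probe does not follow it, while for Hmox1 the internal probe lies below its WT mean and the 3′ probe does not.

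The ferritin genes were among the brightest features of the arrays. Fth1, the heavy chain that oxidises iron, and Ftl1, the light chain, each ranked above 99.4% of probes by mean signal. Fth1 read 388187, 378498 and 358060 across WT 1, 2 and 3, and 320152, 292001 and 335502 across KO 1, 2 and 7, and the brightest non-control spot of any array read 602846. Before scaling, the KO arrays were thus lower for Fth1 (-0.25). After scaling Fth1 was 0.24 ± 0.15 higher, and under quantile normalization it was -0.13, so its direction is not settled. Ftl1 read 377341, 363729 and 352621 across WT 1, 2 and 3, and 311161, 345163 and 395043 across KO 1, 2 and 7. Its scaled difference was 0.43 ± 0.18, with every KO value above every WT value, but it was 0.16 within slide 1, 0.06 under quantile normalization and -0.06 without scaling. Ferritin light chain has near-identical copies in the mouse genome, and a probe that the files name Ftl2, which also lists the Ftl1 transcript, differed by -0.14 ± 0.15.

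**Figure D4:**
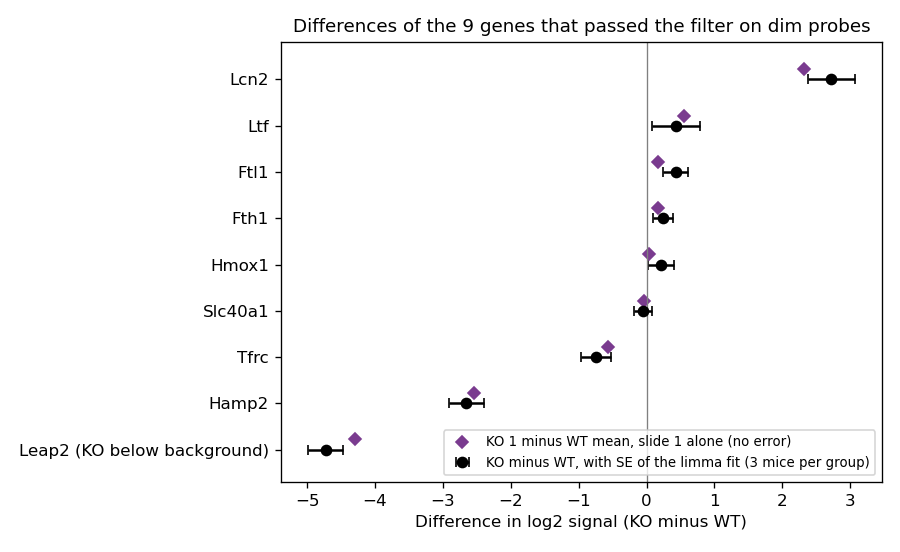
Difference in log2 signal, KO minus WT with its SE (circles, 3 mice per group), and KO 1 minus the WT mean within slide 1 (diamonds, no error), for the 9 genes that entered the fit. Leap2 and Hamp2 lie at the left and Lcn2 at the right in both. The circles of the remaining genes lie between -0.74 and 0.43, and their diamonds between -0.57 and 0.55.

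Beyond these genes, 92 other genes of iron and haem handling and of the ghrelin system were listed and 89 were measured. Of these, 2 rose, 0 fell and 87 did not pass, which is 2.25% against 2.36% of all genes. Their median absolute difference of 0.26 stood beside 0.29 over all genes tested. An unadjusted p under 0.05 in limma was found for 23 of the 89, where 6297 of the 23669 genes tested had one. KO and WT values did not overlap for 38.2% of them, against 35.4% of all genes. The shares that passed and that did not overlap were therefore near those of all genes. A gene that did not pass is not thereby shown to be unchanged.

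Iron uptake and transport genes contributed 1 rise among 23 measured, with 0 falls, 22 that did not pass and a median difference of -0.06. Steap1, of a family of metalloreductases, rose by 1.07 ± 0.18 (adjusted p = 0.038). It was -3.05, -3.23 and -3.46 across WT 1, 2 and 3, and -2.45, -2.06 and -2.02 across KO 1, 2 and 7. It passed in 10 of 21 alternatives (adjusted p from 0.0024 to 0.38), and it did not with slide as a block or without WT 1, WT 2, WT 3, KO 2 or KO 7. Scara5, a receptor that takes up ferritin, differed by -1.59 ± 0.37 (adjusted p = 0.076). It was -0.74, -0.12 and -0.56 across WT 1, 2 and 3, and -1.24, -2.48 and -2.49 across KO 1, 2 and 7. KO 1, on slide 1 with the WT mice, was thus the closest of the KO mice to them. Ftmt, the mitochondrial ferritin gene, was well above background on 1 array only.

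Of 13 genes of iron sensing and of iron-sulphur cluster assembly, 0 rose, 0 fell and 13 did not pass in limma. Their median difference was -0.30, and -0.16 within slide 1. Of the 13, 11 had a lower mean in KO, where 44.9% of all genes tested did, and 0 higher and 4 lower had an unadjusted p under 0.05. The iron regulatory protein genes, named after their values were seen, differed by 0.19 ± 0.17 for Aco1 and by -0.0021 ± 0.19 for Ireb2.

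Genes of haem and of the NRF2 programme, which also drives Hmox1, gave 1 rise among 26 measured, with 0 falls, 25 that did not pass and a median difference of -0.02. Slc7a11, the cystine transporter, rose by 2.24 ± 0.36 (adjusted p = 0.035), or by 1.40 with the normexp background. Its signal was -5.96, -7.20 and -7.27 across WT 1, 2 and 3 and -4.71, -4.29 and -4.69 across KO 1, 2 and 7. Slc7a11 was near the lowest signal well above background in WT 2 (-7.62) and WT 3 (-7.57). It passed in 12 of 21 alternatives (adjusted p from 0.0014 to 0.36), and it did not with slide as a block or without WT 2, WT 3, KO 1, KO 2 or KO 7. Cd163, the macrophage receptor for haemoglobin bound to haptoglobin, differed by -1.0 ± 0.35 (adjusted p = 0.15).

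**Figure D5:**
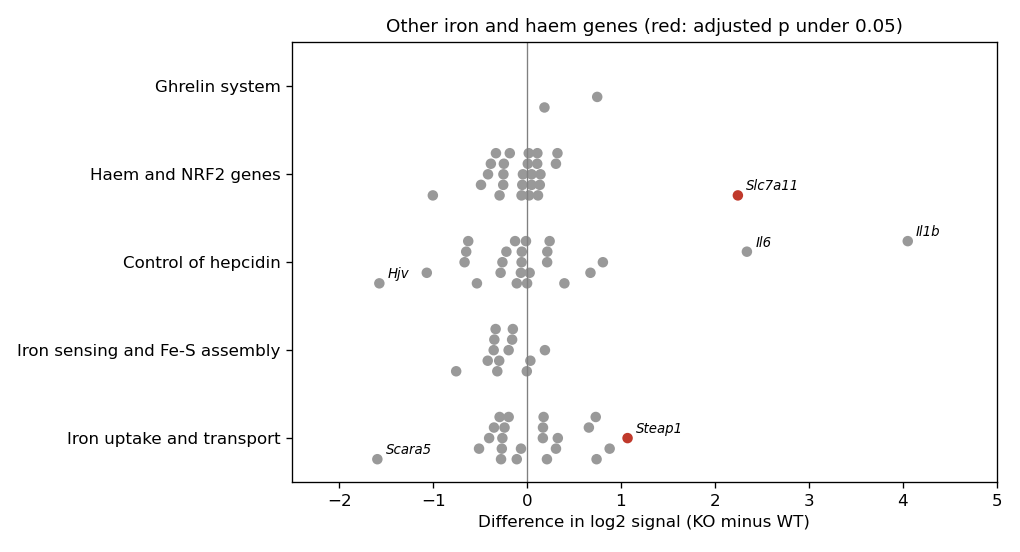
Difference in log2 signal, KO minus WT (x axis), for the 89 other measured genes of iron and haem handling and of the ghrelin system in 5 lists (rows). Red marks an adjusted p under 0.05, and names are given for those genes and for differences over 1.5 in size. Most points lie close to 0, and Steap1 and Slc7a11 are the red points.

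Macrophages and red cells hold much of the iron of a tissue, and their markers were read for Slc40a1, Hmox1 and ferritin. Of 10 macrophage markers, all measured, 0 rose, 1 fell and 9 did not pass, with 1 higher and 2 lower at an unadjusted p under 0.05. Timd4, a receptor for dying cells on resident macrophages, fell by 1.36 ± 0.21 (adjusted p = 0.028) but not with slide as a block (adjusted p = 0.31, over alternatives from 0.0016 to 0.31), nor with the normexp background, without the filter on dim probes, with replicate block, or without WT 1, WT 2, WT 3 or KO 2. Spic, a factor of iron-recycling macrophages, differed by 0.90 ± 0.21 (adjusted p = 0.080). The summed macrophage level ran from 26.4 to 29.1 in WT and from 23.0 to 38.9 in KO.

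Of 12 red cell markers, 9 had a probe matched by name and 5 were measured. The globin genes Hbb-b1, Hba-a1 and Hba-a2 had no probe matched by name and so were not read. Of the 5, 1 rose, 0 fell and 4 did not pass, with 1 higher and 0 lower at an unadjusted p under 0.05. Slc4a1, the anion exchanger of red cells, rose by 2.05 ± 0.32 (adjusted p = 0.031), and by 2.64 within slide 1. It did not pass with quantile normalization, without the filter on dim probes, with replicate block, or without WT 1, WT 2, WT 3 or KO 7. Over the alternatives its adjusted p in limma ran from 0.010 to 0.16. Ermap differed by 0.40 ± 0.17 (adjusted p = 0.20). The beta globin gene Hbb-b2, chosen after its values were seen, was -2.52 in KO 2 and between 0.56 and 1.30 on the other 5 arrays. The summed red cell level ran from 2.03 to 3.04 in WT and from 0.594 to 2.38 in KO, and Epb42 and Klf1 did not rise clear of background on a single array. The part of either cell type in the iron genes was not tested.

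Markers of other tissue layers of the ear were read too, and none passed the threshold in limma. For adipocytes 8 of 8 markers were lower (median -0.90; summed level 77.5 to 180.5 in WT and 66.0 to 111 in KO), for skeletal muscle 7 of 8 (median -0.59; 167 to 309 in WT and 129.6 to 224 in KO), and for cartilage 3 of 4 (median -0.59; 17.4 to 22.2 in WT and 14.0 to 15.7 in KO). The 8 epidermal markers summed to between 360.5 and 419.8 in WT and between 473 and 587 in KO, with a median difference of 0.42. The summed levels of adipocytes and muscle overlapped between the groups, and those of cartilage and epidermis did not. In limma 0 of these 28 genes passed, and 5 higher and 9 lower had an unadjusted p under 0.05. The 2 genes of smallest p in each list were Adipoq (-1.31 ± 0.38) and Lep (-1.50 ± 0.44), Myh1 (-0.54 ± 0.16) and Mb (-0.65 ± 0.21), Comp (-0.62 ± 0.14) and Col9a1 (-1.12 ± 0.26), and Flg2 (-0.78 ± 0.19) and Krt1 (1.16 ± 0.29). The part of these layers in the values of Leap2, Hamp2 and Lcn2 was not tested.

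A fit with slide as a block rests on KO 1 and the WT mice for its difference, and it gave 158 genes higher and 10 lower, against 467 and 92 without the block. Of the 9 genes, only Leap2 was then past the threshold, and its value in KO 1 is a surrogate. Lcn2 was not past it with KO 2 or WT 2 left out. These calls concern genes chosen by this comparison and are no evidence of stability. Scaled by the array median, 388 genes were higher and 149 lower, and without scaling 716 were higher and 5914 lower, so the balance of directions over all genes depends on the scaling. Over all genes the median difference was -0.44 without scaling, and the size of each unscaled value above is to be read beside it.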

How the data were processed

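Total RNA from the ear skin of 3 WT and 3 KO mice, 1 array per mouse, was read with Agilent Feature Extraction 10.7.3.1, per the file headers. The deposited value of each spot is the processed signal, a background-subtracted intensity of 1 colour (Cy3), with probe positions on mm9. The deposited series table held the same values. Depth does not apply to arrays, and 3 mice per group limit the precision. Control spots and spots flagged as outliers were left out, spots of a probe were averaged, log2 was taken and each array's 75th percentile subtracted.

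Probes well above background on at least 3 arrays were kept (29601 of 39429), the brightest probe stood for each of 23669 genes, and limma 3.58.1 in R 4.3.3 was fitted across all of them with Benjamini-Hochberg adjustment at 0.05. The script was checked on simulated data, in which 34% of 2-fold and 72% of 4-fold changes passed that threshold. The 10 genes and all lists were chosen with earlier results of these data known. All 10 are named; from each list, up to 4 genes of smallest p that passed are named, or the 2 of smallest p where fewer than 2 passed; for Leap2, Hamp2 and Lcn2, the 3 genes nearest in pattern. Other genes are said to be chosen after their values were seen. Some genes that this rule names are not reported here. Gene names came from the files, updated through RefSeq, and promoter sequences from RefSeq's GRCm38.p6 table. Alternatives covered background, scaling, filter, probe choice, slide, replicate block, threshold and each mouse left out. Tables and plots used Python 3.11.15.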

Additional observations from a re-analysis of the deposited data

How the results depend on the processing

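Without any change, 467 genes were higher in KO, 92 lower, and 2 pathway genes passed. The normexp background gave 859 higher and 5 pathway genes, quantile normalization 0 pathway genes, the array median 149 lower, the intensity trend 5 pathway genes, and no filter on dim probes 269 higher, 27 lower and 0 pathway genes. Array weights gave 4545, 3081 and 28, an adjusted p under 0.10 gave 1569, 471 and 7, and no scaling between arrays, chosen after seeing the data, gave 716, 5914 and 36. With slide as a fixed block the counts were 158, 10 and 0 in limma (1891 genes and 6 pathway genes at an unadjusted p under 0.05). With the replicate block, which uses the 2 numbers that the groups share, they were 0, 0 and 0 (4516 and 15 at an unadjusted p under 0.05, against 6297 and 23 without it). Same-numbered mice correlated at 0.0834 and 0.0554 and differently numbered ones at 0.0772 and 0.0374. So few correlations cannot show whether same-numbered mice were paired. With this block 0 of the 9 genes passed. Leaving out 1 mouse at a time gave 183 to 716 higher, 18 to 254 lower and 0 to 4 pathway genes, lowest without WT 2 and highest without KO 1; the cause was not tested. Leap2, Hamp2 and Lcn2 kept their direction under every alternative that gave a value. Their differences ran from -5.22 to -1.38, from -3.15 to -2.09 and from 2.23 to 2.99. Tfrc kept its direction too, at its 3′ probe or probe mean. These genes were chosen by this comparison, so a kept direction is no evidence of stability. The Leap2 range also rests on surrogate values in KO. Ltf, Slc40a1, Hmox1, Fth1 and Ftl1 each changed sign under 1 or 2 alternatives. Within slide 1 alone there is 1 KO mouse, so only differences were taken and no test. Signals near background limit Leap2 in KO to a bound and Hamp to no comparison.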
